A study of Mus musculus with 30 samples.

Results

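The Polycomb repressive complex PRC2 carries a changing set of accessory subunits, and the genes of 8 of them were followed here in mouse embryonic stem cells and embryoid bodies. The genes were Jarid2, Aebp2, Mtf2, Phf1, Phf19, Epop, Lcor and Lcorl, found by symbol among the 20563 genes of a table of normalised counts. All 8 were in the table, and all 8 were read in all 30 libraries. The libraries came from 5 lines, each with a pair of biological duplicates on each of 3 days, which were 0, 4 and 8. The study worked with Pali wild type, a Pali1 knockout (genotype Pali1-/-), a Pali1/2 double knockout (Pali1-/- and Pali2-/-), C129 wild type, and a line with Aebp2 trapped (Aebp2gt/gt), called the gene trap. Day 0 cells grew on gelatin with LIF, a cytokine that holds mouse embryonic stem cells in the pluripotent state. Days 4 and 8 were embryoid bodies, aggregates that differentiate in suspension without LIF. The labels do not say how the knockouts were made or how many clones each line held, so each line is read as 1 line and p-values measure the spread between cultures. C129 wild type was taken as the control of the gene trap from the order of the lines in the study design, which does not state that pairing.

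PRC2 methylates histone H3 at repressed genes through a core of EZH1 or EZH2 with SUZ12, EED and RBBP4 or RBBP7. The accessory subunits bind this core in alternative forms. One form holds AEBP2 and JARID2. The other holds a Polycomb-like protein, MTF2, PHF1 or PHF19, and can add either EPOP or one of the PALI proteins. PALI1 is made from the Lcor gene and PALI2 from the Lcorl gene, each as a product beside other transcripts of its gene. In embryonic stem cells these subunits are known to help bring PRC2 to its target genes.

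Library totals were 1.55e+07 to 1.83e+07 normalised counts, from an estimated 1.32e+07 to 2.82e+07 reads. The estimated reads behind a member value ran from 34 to 146 for Lcor and from 107 to 241 for Phf1, and from 2773 to 12874 for Jarid2. All 8 pluripotent cell markers were above 0 in every library at day 0, and their summed normalised count was 64010 to 109396 at day 0, 22753 to 48633 at day 4 and 12367 to 52611 at day 8. For replicate 1 of the double knockout, the titles and the descriptions disagree on the culture state at 2 times, days 0 and 4, and the titles were followed. Epop, which separated day 0 from the later days in every other library, was 3099 and 766 in these 2 libraries, the levels of day 0 and of day 4. An exact value of 0 can be a failed estimate in this table, since Ezh2, a core PRC2 gene, was listed at 0 in 23 of 30 libraries.

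The genes lie on 7 chromosomes, and coordinates are of GRCm38, the assembly that the build name mm10 stands for. Jarid2 is at chr13:44729474-44921643 and Aebp2 at chr6:140622663-140678472, both on the plus strand. Of the Polycomb-like genes, Mtf2 is at chr5:108065674-108109004, Phf1 at chr17:26933052-26937908 and Phf19, on the minus strand, at chr2:34893757-34914026. Epop is on the minus strand at chr11:97627389-97629702 and has a single annotated transcript. Lcor is at chr19:41482637-41562261 and Lcorl, on the minus strand, at chr5:45697181-45857615. The table gives 1 value per gene, so the PALI transcripts of Lcor and Lcorl were not separated from their other transcripts. The PALI1 exon is annotated as a separate locus, chr19:41582370-41586536, which lies beyond the Lcor end given above. This locus has no value of its own in the table, and its bases are not in the Lcor length used below. In RefSeq, Lcor runs to 41596161, past this locus. Whether the Lcor value takes in the PALI1 exon is therefore not known.

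Promoters are shown for Jarid2 and Mtf2, which fell during differentiation, and for Lcorl, which rose. Each run is the 250 bases before an annotated start, read 5′ to 3′ on the strand of the gene, credited to RefSeq on GRCm38.p6, with GC boxes in capitals. They lie at chr13:44730524-44730773, chr5:108065424-108065673 and chr5:45857541-45857790.
Jarid2: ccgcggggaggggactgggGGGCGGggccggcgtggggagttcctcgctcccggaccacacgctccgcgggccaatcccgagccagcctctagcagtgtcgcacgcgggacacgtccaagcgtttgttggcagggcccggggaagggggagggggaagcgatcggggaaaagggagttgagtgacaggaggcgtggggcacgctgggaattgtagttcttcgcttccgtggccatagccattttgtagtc
Mtf2: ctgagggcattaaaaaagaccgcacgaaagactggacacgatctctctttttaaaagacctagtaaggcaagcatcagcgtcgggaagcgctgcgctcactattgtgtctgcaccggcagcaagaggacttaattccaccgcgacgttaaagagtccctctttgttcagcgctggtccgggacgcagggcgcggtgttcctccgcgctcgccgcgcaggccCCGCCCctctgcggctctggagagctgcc
Lcorl: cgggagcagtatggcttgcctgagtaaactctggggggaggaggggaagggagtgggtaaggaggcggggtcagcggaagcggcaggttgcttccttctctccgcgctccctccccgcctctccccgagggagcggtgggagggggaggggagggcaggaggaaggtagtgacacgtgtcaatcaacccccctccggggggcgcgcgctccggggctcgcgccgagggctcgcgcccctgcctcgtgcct
RefSeq promoters, 250 bases before to 50 bases after a start, were at hand for 7 of the 8 genes, all but Epop. Aebp2 had 3 of them, Jarid2, Mtf2 and Lcorl had 2 each, and the rest 1. Only the promoter nearest to the start of the gene in the coordinates above was searched. The GC box, GGGCGG on either strand, is a binding sequence of SP-family factors and occurred in 35.7% of 32851 such promoters. It was found 9 times at Lcor, 4 times each at Phf1 and Phf19, and 1 time each at Jarid2 and Mtf2. The promoters searched for Lcorl and Aebp2 had 0 GC boxes. An E-box, CACGTG, was found 1 time at Lcorl and occurred in 7.15% of promoters. A CCAAT box was found 1 time at Jarid2 and occurred in 37.4% of promoters. The octamer ATGCAAAT, read by POU factors, and the ETS motif CCGGAAG were in 0 of the 7 promoters, against 1.74% and 8.86% of all promoters. CG dinucleotides numbered 24 to 49 in these promoters except in the 1 searched for Aebp2, which had 4, and the median over all promoters was 7. The other Aebp2 promoters were not searched. These matches are descriptions of the windows searched.

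Levels of different genes were compared per kb of merged exons, in normalised counts per kb. Over all 30 libraries the medians were 473 for Jarid2, 463 for Epop, 214 for Mtf2, 183 for Aebp2, 46.2 for Phf1, 32.2 for Lcorl and 9.08 for Lcor, with Phf19 at 0. Without the 6 gene trap libraries the order turned in both leading pairs, with Epop at 453 above Jarid2 at 429.7 and Aebp2 at 220.3 above Mtf2 at 188. At day 0 Epop stood first with a median of 1509 (range 1110 to 2697), above Jarid2 at 706 (range 557 to 903), and the ranges did not overlap. By day 8 Epop at 423 (range 372 to 476) and Jarid2 at 408 (range 249 to 539) overlapped. Divided by the longest transcript in place of merged exons, the medians were 304 for Aebp2, 14.9 for Lcor and 76.8 for Lcorl, which puts Lcorl above Phf1 at 51.3 and turns the order of Aebp2 and Mtf2 over all 30 libraries. Among the Polycomb-like genes, Mtf2 made up 82.8 to 91.7% of the summed value per kb at day 0, 65.5 to 84.1% at day 4 and 66.5 to 89.3% at day 8. In C129 wild type the share was 90.1 and 91.7% at day 0 but 66.5 and 67.9% at day 8, while the gene trap held 84.3 and 89.3% at day 8. As listed, Mtf2 thus had the highest level per kb of the Polycomb-like genes in each of the 30 libraries. These shares take each 0 of Phf19, in 23 of the libraries, as it stands, and such a 0 can be a failed estimate.

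**Figure D1:**
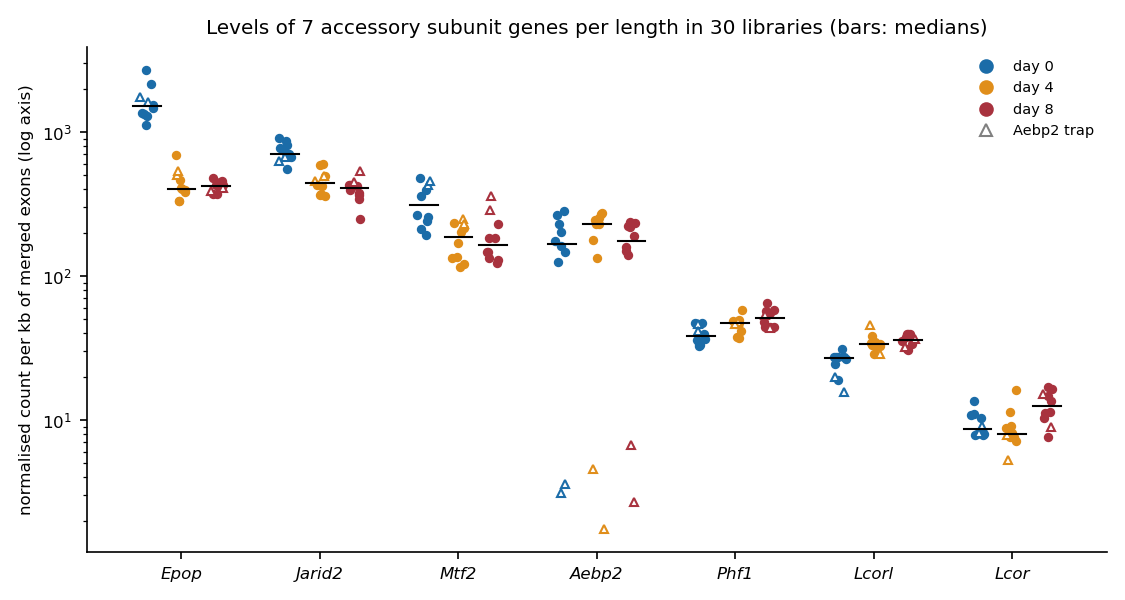
Normalised counts per kb of merged exons (log axis) for 7 genes, with 1 point per library coloured by day, triangles for the gene trap and bars for medians of 10 libraries. Epop leads at day 0 with a median of 1509 and meets Jarid2 by day 8, the gene trap libraries sit far below the rest for Aebp2, and Phf19, at 0 in 23 of 30 libraries, is not drawn.

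Differences between groups were tested with limma on log2(value + 4) over 15712 genes, and a call is a Benjamini-Hochberg adjusted p under 0.05. Fold changes are on that log2 scale, with the standard error (SE) of the fit, and n is 2 libraries a group.

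During differentiation Epop, Jarid2 and Mtf2 fell, and Lcorl and Phf1 rose. Averaged over the 5 lines, 4 of 8 members were called at day 4 against day 0, 1 higher and 3 lower, beside 54.4% of all genes tested (27.3% higher and 27.1% lower). At day 8 against day 0, 5 of 8 were called, 2 higher and 3 lower, beside 61% of all genes (32.5% higher and 28.5% lower), so the share of members called was near that of genes in general. In such bulk libraries, fewer cells of a type and less RNA per cell cannot be told apart. With the gene trap left out of the mean, the same numbers of members were called, 4 (50.5% of all genes) and 5 (59.3%). The pluripotent marker sum was lower on days 4 and 8, as given above, and its part in these changes was not tested.

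**Figure D2:**
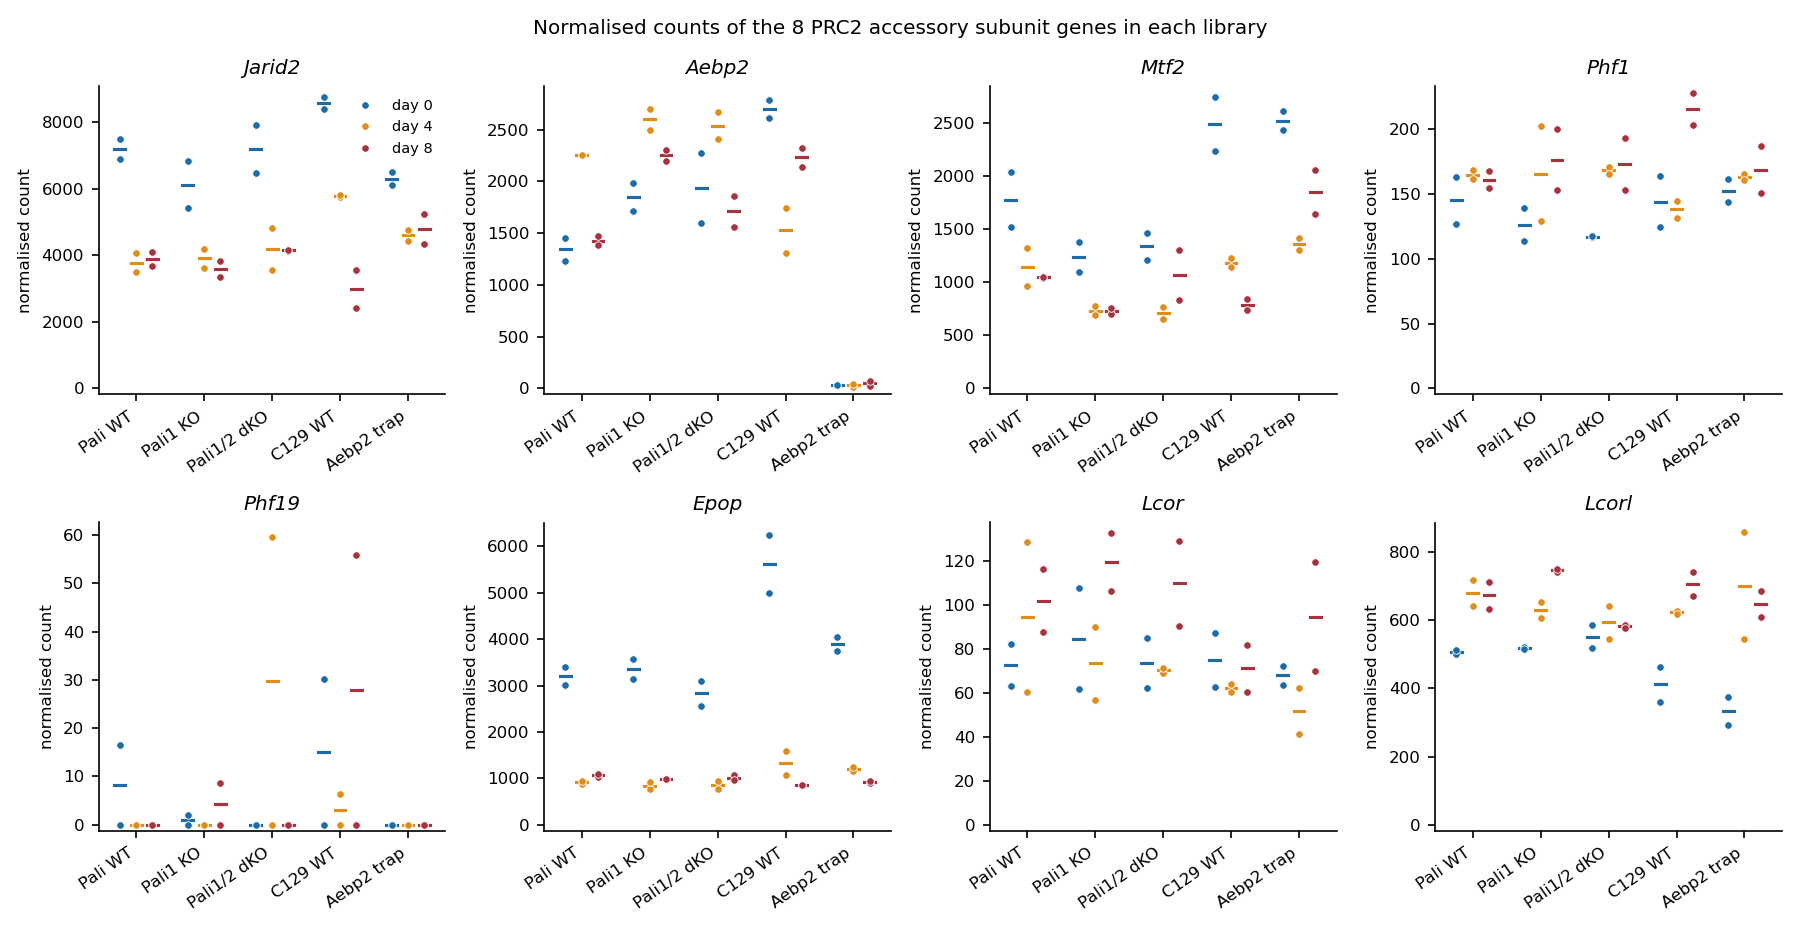
Normalised counts of the 8 genes in each of the 30 libraries, by line and day, with points for libraries and bars for the means of 2. Epop is high in all 10 day 0 libraries, Aebp2 is near 0 in the gene trap, and the other points of Phf19 above 0 come from single libraries of a pair.

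Epop, an adaptor that links PRC2 to elongin BC, had the largest change among the members. In Pali wild type it was 3008 and 3410 at day 0, 887 and 936 at day 4, and 1033 and 1102 at day 8. The Pali1 knockout had 3149 and 3575, then 766 and 919, then 986 and 989. These courses were alike in shape, a drop by day 4 and little after it. The double knockout had 3099 and 2568, then 766 and 938, then 1064 and 971. C129 wild type started higher, at 5004 and 6242, and went to 1595 and 1079 and then to 860 and 866. In the gene trap, Epop was 3745 and 4056, then 1168 and 1241, then 900 and 944. Every day 0 library (2568 to 6242) lay above every later library (766 to 1595). Over the 5 lines Epop fell by 1.86 at day 4 (SE 0.0693, adjusted p 3.77e-13) and by 1.92 at day 8 (SE 0.0693, adjusted p 2.66e-13), and it was called in 5 of 5 lines on both days.

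Jarid2, which encodes a DNA-binding subunit that helps to recruit PRC2, fell less than Epop. Pali wild type had 6891 and 7492 at day 0, 4076 and 3484 at day 4, and 4102 and 3668 at day 8. In the Pali1 knockout Jarid2 was 5407 and 6829, then 3630 and 4188, then 3833 and 3346. Within these lines both later days lay below both day 0 libraries. The double knockout had 7904 and 6488, then 4827 and 3546, then 4137 and 4162. C129 wild type went on falling, from 8773 and 8385 to 5746 and 5799 and to 3554 and 2420. The gene trap changed least, with 6496 and 6099, then 4425 and 4770, then 5241 and 4345. Over the 5 lines Jarid2 fell by 0.68 at day 4 (SE 0.0765, adjusted p 5.62e-07) and by 0.88 at day 8 (adjusted p 1.52e-08). It was called in 4 of 5 lines on each day, and in the gene trap its values, -0.45 at day 4 (adjusted p 0.0530) and -0.40 at day 8 (adjusted p 0.0877), did not pass. The day 4 call in C129 wild type (-0.57) was lost without any 1 of its 4 libraries, with adjusted p 0.0536 to 0.0923, and that in the Pali1 knockout (-0.64) without day 0 replicate 2 (0.113) or day 4 replicate 1 (0.0852).

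Mtf2, the Polycomb-like protein that binds unmethylated CG-rich DNA, fell as well. Pali wild type had 2043 and 1517 at day 0, 1322 and 968 at day 4, and 1039 and 1054 at day 8. The Pali1 knockout had 1093 and 1375, then 687 and 776, then 703 and 756. Both lines stayed at their day 4 level. In the double knockout Mtf2 was 1468 and 1210, then 658 and 765, then 1308 and 832, so that day 8 overlapped day 0. C129 wild type had 2746 and 2240, then 1143 and 1226, then 741 and 838. In the gene trap it was 2437 and 2613, then 1413 and 1304, then 2056 and 1643, with day 8 above day 4. Over the 5 lines Mtf2 fell by 0.85 at day 4 (SE 0.0901, adjusted p 2.51e-07) and by 0.79 at day 8 (adjusted p 4.65e-07). It was called in 5 of 5 lines at day 4 and in 3 of 5 at day 8, where the double knockout (-0.35, adjusted p 0.208) and the gene trap (-0.46, adjusted p 0.0981) did not pass. The calls in Pali wild type were lost without day 0 replicate 1 (adjusted p 0.252 at day 4 and 0.141 at day 8), without day 4 replicate 2 (0.242 at day 4) or without day 8 replicate 1 (0.0545 at day 8). Those in the Pali1 knockout were lost without day 0 replicate 2 (0.105 at day 4 and 0.0795 at day 8) or day 4 replicate 1 (0.0770 at day 4).

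Phf1, another Polycomb-like gene, moved the other way. Its lowest, median and highest values were 114, 133 and 164 at day 0, 128.9, 163 and 202 at day 4, and 151, 177 and 228 at day 8. The ranges of the days overlapped. Over the 5 lines Phf1 rose by 0.38 at day 8 (SE 0.0939, adjusted p 0.00199), with a higher mean in 5 of 5 lines, and its day 4 value of 0.22 (adjusted p 0.0560) did not pass. C129 wild type was the line in which it was called, with 164 and 124 at day 0, 132 and 145 at day 4, and 228 and 203 at day 8 (0.58 against day 0, adjusted p 0.0312). That call was lost without day 0 replicate 2 (0.249), day 8 replicate 1 (0.142) or day 8 replicate 2 (0.0594). Phf19, the last Polycomb-like gene, was listed at 0 in 23 of 30 libraries. Its other values were 59.6 in double knockout day 4 replicate 1, 55.8 in C129 day 8 replicate 2, 30.2 in C129 day 0 replicate 1, 16.4 in Pali wild type day 0 replicate 1, 8.70 in Pali1 knockout day 8 replicate 1, 6.29 in C129 day 4 replicate 2 and 1.99 in Pali1 knockout day 0 replicate 2. In each of these groups the duplicate was at 0, and no call was made on Phf19 in any contrast.

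Lcorl, the gene that holds PALI2, rose. Pali wild type had 499 and 513 at day 0, 718 and 641 at day 4, and 634 and 713 at day 8. C129 wild type had 464 and 359, then 627 and 618, then 670 and 741. The gene trap started lowest, at 376 and 294, and then had 858 and 544, and 685 and 608. In these lines every later library lay above both day 0 libraries. The Pali1 knockout had 520 and 516, then 652 and 606, then 742 and 750. In the double knockout, which lacks PALI2, the gene had 517 and 584, then 545 and 641, then 586 and 578, a flat course. Over the 5 lines Lcorl rose by 0.49 at day 4 (SE 0.0762, adjusted p 2.57e-05) and by 0.55 at day 8 (adjusted p 5.33e-06). The gene trap had the highest values (1.03 at day 4, adjusted p 0.000152, and 0.95 at day 8, adjusted p 0.000349), and C129 wild type followed (0.61, adjusted p 0.0117, and 0.78, adjusted p 0.00101). The C129 call at day 4 was lost without day 0 replicate 2 (0.147), day 4 replicate 1 (0.0547) or day 4 replicate 2 (0.0519). In the Pali1 knockout Lcorl was called at day 8 (0.52, adjusted p 0.0197), and the call was lost without any 1 of its 4 libraries (0.0658 to 0.0804). Pali wild type (0.42 and 0.41, adjusted p 0.0784 and 0.0916) and the double knockout (0.10 and 0.08, adjusted p 0.711 and 0.772) did not pass.

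Lcor, the gene that holds PALI1, had the lowest median level per kb over all 30 libraries among the members detected in every library. In the gene trap, Aebp2 lay lower. Its lowest, median and highest values were 61.7, 68.1 and 108 at day 0, 41.4, 63.2 and 128.7 at day 4, and 60.4, 98.5 and 133 at day 8. Duplicates of Lcor differed by up to 2.13-fold, in Pali wild type at day 4 (128.7 and 60.4). Over the 5 lines it was higher at day 8 than at day 4 by 0.49 (SE 0.165, adjusted p 0.0276), the 1 member called in that comparison, where 33.8% of all genes were called. Without the gene trap in the mean the call was lost (0.41, adjusted p 0.0993), and Jarid2 was called there (-0.26, adjusted p 0.0247), beside 31.9% of all genes. That Jarid2 call was lost without any 1 of 6 libraries (0.0562 to 0.0757): C129 day 8 replicate 2, Pali1 knockout day 4 and day 8 replicate 2, Pali wild type day 4 replicate 1 and day 8 replicate 2, and double knockout day 4 replicate 1. It was lost as well in a fit on the 4 lines (0.0566). Leaving out 1 library at a time, the Lcor call over the 5 lines was lost for 8 of the libraries, with adjusted p 0.0582 to 0.0706. They were gene trap day 4 and day 8 replicate 2, C129 day 8 replicate 2, Pali1 knockout day 4 and day 8 replicate 2, Pali wild type day 4 replicate 2 and day 8 replicate 1, and double knockout day 8 replicate 1. Against day 0 the values of Lcor over the 5 lines were -0.12 at day 4 (adjusted p 0.584) and 0.38 at day 8 (adjusted p 0.0567).

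Within single lines the members called at day 4 against day 0 numbered 3 in Pali wild type (27.3% of all genes called), 3 in the Pali1 knockout (30.5%), 3 in the double knockout (27.5%), 4 in C129 wild type (29.1%) and 3 in the gene trap (30.6%). At day 8 against day 0 they numbered 3 (25.8%), 4 (42.1%), 2 (30.9%), 5 (45.8%) and 2 (31.3%) in the same order. Between day 4 and day 8, C129 wild type alone had members called, 4 of 8 beside 30.8% of all genes: Jarid2 (-0.98, adjusted p 0.000324), Mtf2 (-0.59, adjusted p 0.0341), Epop (-0.60, adjusted p 0.00636) and Phf1 (0.63, adjusted p 0.0301). Of these, the Mtf2 and Phf1 calls were lost without any 1 of the 4 libraries (0.0740 to 0.157 and 0.0630 to 0.156), and that of Epop without day 4 replicate 1 (0.166). In the other 4 lines limma called 0 members between these days. The background was 2.81% in Pali wild type, 14.5% in the Pali1 knockout, 7.95% in the double knockout and 8% in the gene trap, and at an unadjusted p under 0.05 there were 0, 0, 1 (Mtf2) and 3 (Mtf2, Epop and Lcor). In fits on the 4 libraries compared, further calls within lines were lost. These were Mtf2 in Pali wild type (adjusted p 0.190 at day 4 and 0.0851 at day 8), Jarid2 at day 4 in the Pali1 knockout (0.0636) and the double knockout (0.0876), and Lcorl at day 4 in C129 wild type (0.0940) and the gene trap (0.108). Phf1 at day 8 in C129 wild type (0.130) was lost too, as were all 4 of its calls between day 4 and day 8 (0.0766 to 0.179).

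**Figure D3:**
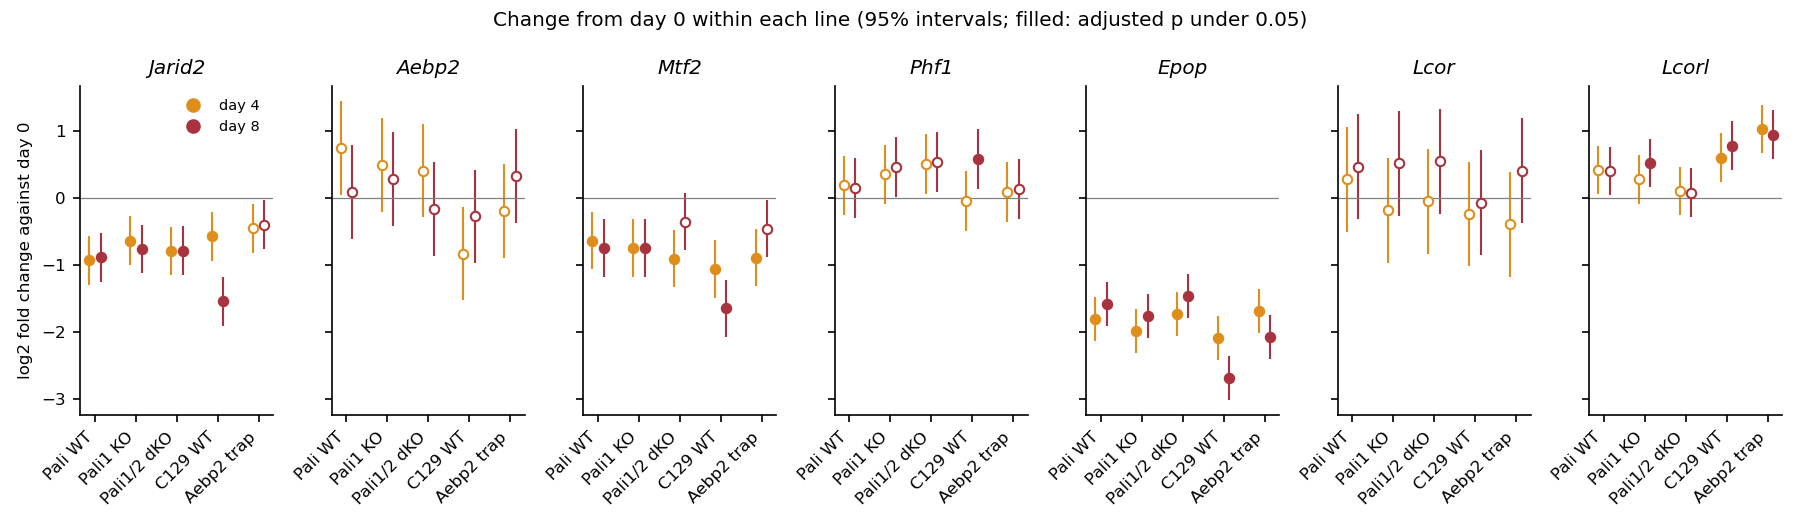
Log2 fold change against day 0 of 7 genes in each line at day 4 and day 8, with 95% intervals of the limma fit and filled points for adjusted p under 0.05. Epop lies between -2.69 and -1.47 in every line, Jarid2 and Mtf2 fall less, and Lcorl lies above 0.

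Aebp2, a zinc finger subunit that joins JARID2 in its form of PRC2, did not share a course between the lines. Pali wild type had 1452 and 1232 at day 0, 2258 and 2255 at day 4, and 1385 and 1469 at day 8, a peak at day 4. C129 wild type had 2611 and 2784, then 1312 and 1748, then 2320 and 2143, a trough at day 4. On each day the libraries of these wild types did not overlap, and how often this holds for genes in general was not computed. The Pali1 knockout had 1983 and 1715, then 2696 and 2500, then 2198 and 2308, and the double knockout 2276 and 1596, then 2669 and 2411, then 1863 and 1562. The gene trap libraries ran from 17.1 to 66.4 with duplicates up to 2.62-fold apart, and these enter the spread estimated for Aebp2 (SE 0.329 for a pair of groups). Without them in the fit the SE was 0.158, an alternative chosen after the data were seen. In that fit Aebp2 rose at day 4 in Pali wild type (0.75, adjusted p 0.00250, against 0.103 with the gene trap in the fit, beside 27.5% of all genes called) and in the Pali1 knockout (0.49, adjusted p 0.0285, against 0.293, beside 30.5%). In C129 wild type it fell (-0.83, adjusted p 0.00112, against 0.0675, beside 29.2%). From day 4 to day 8 it fell in Pali wild type (-0.66, adjusted p 0.0400, beside 2.81%) and in the double knockout (-0.57, adjusted p 0.0410, beside 7.51%) and rose in C129 wild type (0.56, adjusted p 0.0149, beside 31%).

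The wild types were then compared on each day. At day 0, 2 of 8 members were called higher in C129 than in Pali wild type, beside 21.1% of all genes called: Epop (0.80, SE 0.155, adjusted p 0.00116) and Aebp2 (1.01, SE 0.329, adjusted p 0.0363, and 0.000440 without the gene trap in the fit, beside 21.5%). The Aebp2 call was lost without any 1 of the 4 libraries while the gene trap stayed in the fit (0.0830 to 0.172). At day 4 the 2 called were Jarid2 (0.61, adjusted p 0.0200) and Epop (0.52, adjusted p 0.0278), beside 15.9%. Both day 4 calls were lost without C129 day 4 replicate 1 (0.0969 for Jarid2 and 0.411 for Epop) or Pali wild type day 4 replicate 2 (0.144 and 0.0757), Jarid2 also without C129 day 4 replicate 2 (0.0760), and Epop also without Pali wild type day 4 replicate 1 (0.142). At day 8 limma called 0 members, beside 17.3%, with 1 at an unadjusted p under 0.05 (Jarid2). In fits on the 4 libraries compared, the Epop calls at day 0 (0.0683) and day 4 (0.286) and the Jarid2 call (0.109) were lost. Without the gene trap in the fit Aebp2 was lower in C129 at day 4 (-0.57, adjusted p 0.0230, beside 16.1%) and higher at day 8 (0.64, adjusted p 0.0116, beside 17.3%). The courses themselves differed for Aebp2 at day 4 against day 0 (-1.58, SE 0.465, adjusted p 0.0413), the 1 member called beside 8.99% of all genes. They differed at day 8 against day 0 for Epop (-1.11, SE 0.219, adjusted p 0.00248) and Mtf2 (-0.90, SE 0.285, adjusted p 0.0418), beside 14.2%. The Mtf2 term was lost without any of 6 single libraries (0.0699 to 0.181): C129 day 0 replicate 1, both C129 day 8 libraries, Pali wild type day 0 replicate 2 and both Pali wild type day 8 libraries. It was also lost without the gene trap in the fit (0.0595) and in a fit on the 8 libraries compared (0.0983). The Aebp2 term was lost without any 1 of 7 of the 8 libraries, all but C129 day 4 replicate 2 (0.0754 to 0.148). The pluripotent marker sum at day 8 was 12367 and 18443 in C129 and 42387 and 52053 in Pali wild type, and its part in these differences was not tested.

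The other genes of the pathway, from lists chosen with earlier results of these data known, are given for the mean of 5 lines at day 8 against day 0, where 61% of all genes were called, 32.5% higher and 28.5% lower. Of 7 core and cofactor genes, 3 were called lower and 1 higher, with a median of -0.26 against 0.05 over all genes. Eed, whose protein reads the methyl mark and stimulates the enzyme, fell by 1.49 (adjusted p 1.58e-12), from 3674 to 6345 over the day 0 libraries to 1570 to 2066 at day 8. Suz12, the scaffold of the complex, fell by 0.26 (adjusted p 0.00300), and Ezhip, an inhibitor of the enzyme listed as AU022751, fell by 1.31 (adjusted p 7.91e-07). Ezh1 was the gene called higher (2.89, adjusted p 0.0192), but its values ran from 0 to 867, with a library at 0 beside one above 0 in 5 of the duplicate pairs. Of 9 partners linked to accessory subunits, 3 rose and 3 fell, with a median of -0.06. Skida1, found with PRC2, rose by 2.43 (adjusted p 5.38e-10), and Kdm5a, a demethylase of an active mark, rose by 0.34 (adjusted p 2.69e-08). Ctbp2, a corepressor that binds LCOR, fell by 0.99 (adjusted p 7.11e-11), and Ctbp1 rose by 0.37 (adjusted p 2.03e-06). Elob and Eloc, the elongin B and C genes, fell by 0.47 and 0.48 (adjusted p 1.12e-07 and 0.000123). Among 24 genes of the sister complex PRC1, 10 rose and 6 fell, with a median of 0.00. Cbx2, which reads the mark, rose by 1.10 (adjusted p 9.35e-10), Ring1, a ubiquitin ligase subunit, rose by 0.99 (adjusted p 1.17e-08), and L3mbtl2, of a variant PRC1, fell by 0.73 (adjusted p 4.23e-10). Kdm6a, the 1 demethylase of the mark that was tested, fell by 0.86 (adjusted p 0.000145).

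Loss of PALI1, or of PALI1 and PALI2, was compared with Pali wild type for the remaining accessory subunits. The limma test called 0 of 8 members in the Pali1 knockout at day 0, day 4 and day 8, beside 4.79%, 2.67% and 13.6% of all genes called. In the double knockout it likewise called 0 of 8 on each day, beside 3.67%, 2.07% and 7.21%. At an unadjusted p under 0.05 there was 1 member, Mtf2, on each day of the Pali1 knockout and at day 4 of the double knockout, and 0 at its day 0 and day 8. The values of the knocked-out genes do not check the labels, since a deletion that removes the PALI protein need not change the summed value of the gene. For Lcor, it is also not known whether the value takes in the PALI1 exon. Lcor in the Pali1 knockout was 108 and 61.7 at day 0 against 82.2 and 63.0 in Pali wild type, and 107 and 133 at day 8 against 116 and 87.8. Its differences were 0.17 (95% interval -0.61 to 0.96) at day 0, -0.29 (-1.07 to 0.50) at day 4 and 0.23 (-0.56 to 1.01) at day 8. These intervals are wider than those of the other members apart from Phf19. In the double knockout, Lcorl differed by 0.12 (-0.25 to 0.48), -0.20 (-0.56 to 0.17) and -0.21 (-0.57 to 0.16) on the same days.

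Mtf2 was the member nearest to a call in the Pali mutants. Its values were lower in the Pali1 knockout than in Pali wild type by -0.52 (SE 0.201, adjusted p 0.170) at day 0, -0.63 (adjusted p 0.117) at day 4 and -0.52 (adjusted p 0.0998) at day 8, with no overlap of libraries on any of the 3 days. The share of all genes with no such overlap was not computed, so the lack of overlap adds no support to these values, none of which was called. The 95% interval at day 8 was -0.95 to -0.09. In the double knockout the values were -0.40 (adjusted p 0.376), -0.67 (adjusted p 0.0999) and -0.00 (adjusted p 1.00), so that both mutants stood side by side at day 4 and apart at day 8. The direct difference of the double and single knockout at day 8 was 0.52 (adjusted p 0.292). Mtf2 in the double knockout that day was 1308 and 832, 1 library above and 1 below both wild type libraries (1039 and 1054). The pluripotent marker sum was also lower in the mutants at day 0, 76135 and 78732 in the Pali1 knockout and 64010 and 67875 in the double knockout against 93021 and 93090. At day 4 it was 31367 and 33047, and 22753 and 27248, against 35559 and 37029. At day 8 it was 21349 and 26007, and 28982 and 30154, against 42387 and 52053. The sum of 6 neural markers at day 8 was 10696 and 12655 in the Pali1 knockout and 11108 and 12646 in the double knockout, against 4688 and 6153. The part of these markers in the values of Mtf2 and Aebp2 was not tested. Aebp2 had higher means in both mutants on all 3 days, by 0.17 to 0.66, none of them called in the full fit. Without the gene trap in the fit, the Pali1 knockout at day 8, with 2198 and 2308 against 1385 and 1469, was called (0.66, SE 0.158, adjusted p 0.0127, against 0.212 in the full fit, beside 13.9% of all genes). Jarid2 differed by -0.24 to 0.13 and Epop by -0.18 to 0.07 over the 6 comparisons. Their 95% intervals stayed within -0.61 and 0.50 for Jarid2 and within -0.51 and 0.40 for Epop. Between the double and the single knockout limma called 0 members on each day (3.07%, 1.38% and 1.37% of all genes), with 1 at an unadjusted p under 0.05 (Mtf2 at day 8). The courses of the mutants against the course of Pali wild type also gave 0 calls (0.426% and 5.73% of all genes for the Pali1 knockout at day 4 and day 8, 0.477% and 1.12% for the double knockout), with 0 members at an unadjusted p under 0.05.

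Some other Polycomb genes were called in these mutants. Ezhip (AU022751) was higher at day 0 in the Pali1 knockout (102 and 72.1 against 22.8 and 25.4, 1.68, adjusted p 0.00880) and in the double knockout (71.2 and 69.5, 1.41, adjusted p 0.0302). Scml2, of PRC1, was higher at day 8 in the Pali1 knockout (199 and 184 against 16.1 and 10.0, 3.54, adjusted p 8.83e-05) and in the double knockout (147 and 203, 3.40, adjusted p 0.000505). Suz12 was lower in the Pali1 knockout at day 8 (4974 and 5193 against 7512 and 6862, -0.50, adjusted p 0.0359). Both mutants were set against the same 2 wild type libraries on each day. In all, the core and cofactor list given above had 1 gene called higher and 0 lower at day 0 in each mutant. Of all genes, 3.04% were called higher and 1.75% lower in the Pali1 knockout, and 2.95% and 0.719% in the double knockout. At day 8 the list had 0 higher and 1 lower in the Pali1 knockout, beside 7.07% and 6.52% of all genes. The double knockout then had 1 and 0, beside 4.13% and 3.08%. Counts for day 4 and for the PRC1 list are not given here.

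**Figure D4:**
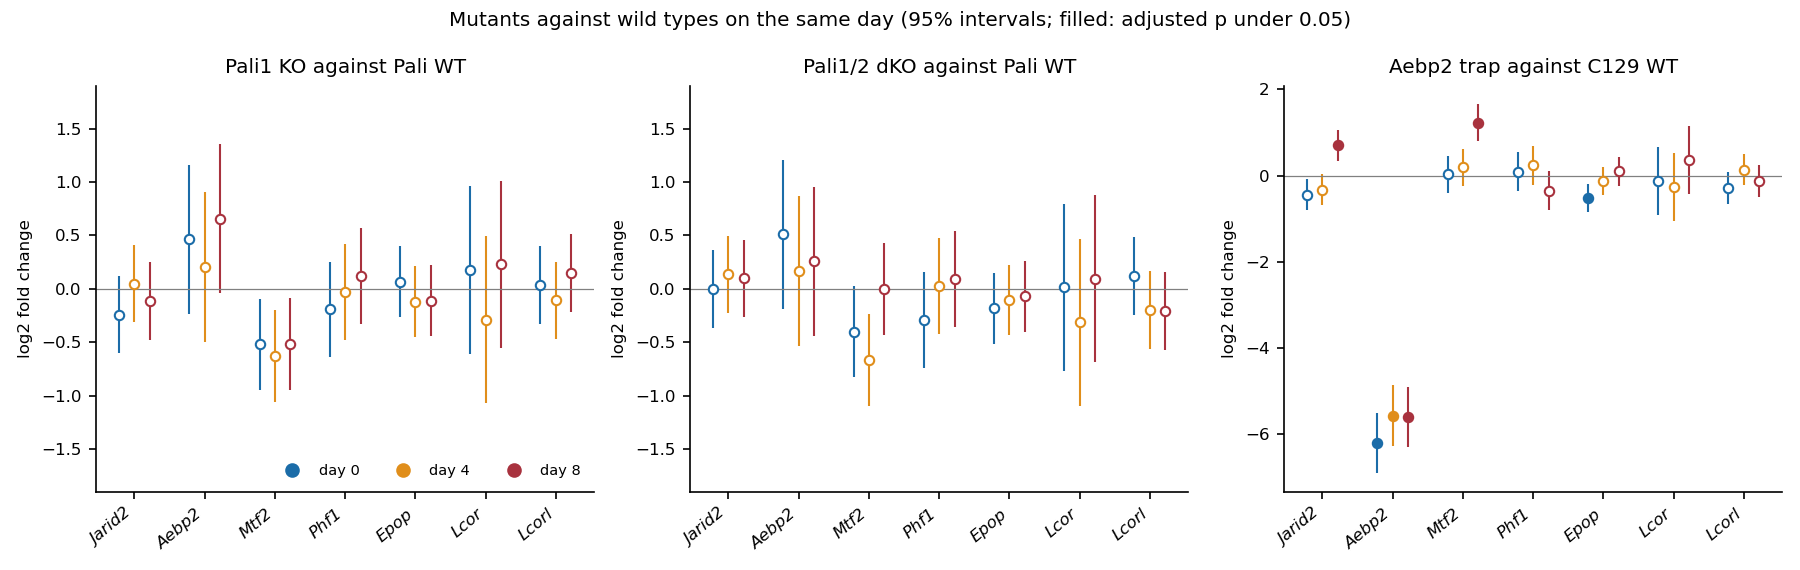
Log2 fold change of 7 genes in each mutant against its wild type at day 0, day 4 and day 8, with 95% intervals of the limma fit and filled points for adjusted p under 0.05; the panel of the gene trap has its own axis. No point of the Pali mutants is filled, while Aebp2 lies between -6.20 and -5.56 in the gene trap and Mtf2 and Jarid2 lie above 0 at day 8.

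The Aebp2 gene trap, an insertion meant to cut short the Aebp2 transcript, was checked by Aebp2 itself. It was 30.5 and 35.2 at day 0, 17.1 and 44.9 at day 4, and 26.5 and 66.4 at day 8, against 2611 and 2784, 1312 and 1748, and 2320 and 2143 in C129 wild type. The mean was 0.0122 of the C129 mean at day 0, 0.0203 at day 4 and 0.0208 at day 8. The differences were -6.20 (SE 0.329, adjusted p 3.55e-09), -5.56 (adjusted p 6.22e-08) and -5.59 (adjusted p 1.43e-08), and at day 4 the adjusted p was 0.158 in a fit on the 4 libraries compared. Aebp2 was called with the label in all 3 comparisons, in which 2 of 8 members were called at day 0 (13% of all genes), 1 at day 4 (9.01%) and 3 at day 8 (20.1%).

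At day 8 Mtf2 and Jarid2 were higher in the gene trap. Mtf2 was 2056 and 1643 against 741 and 838, a difference of 1.22 (SE 0.201, adjusted p 0.000333) and 2.34 times the mean of C129 wild type. Jarid2 was 5241 and 4345 against 3554 and 2420, a difference of 0.70 (SE 0.171, adjusted p 0.00670) and 1.60 times the mean. In a fit on these 4 libraries alone, which called 0 genes in all, the adjusted p was 0.0680 for Mtf2, 0.194 for Jarid2 and 0.0630 for Aebp2. The Jarid2 call was lost without gene trap day 8 replicate 1 (adjusted p 0.0989) or C129 day 8 replicate 2 (0.143). Neither gene was called at the earlier days. At day 0 Mtf2 differed by 0.02 (95% interval -0.40 to 0.45) and Jarid2 by -0.45 (adjusted p 0.0991). At day 4 Mtf2 had a higher mean, at 1413 and 1304 against 1143 and 1226 (0.20, adjusted p 0.628), and Jarid2 a lower one, at 4425 and 4770 against 5746 and 5799 (-0.33, adjusted p 0.268). The difference between the courses was itself called at day 8 against day 0 for 2 of 8 members, beside 15.3% of all genes: Jarid2 (1.15, SE 0.242, adjusted p 0.00405) and Mtf2 (1.19, SE 0.285, adjusted p 0.00892). The Mtf2 term was lost without gene trap day 8 replicate 1 (adjusted p 0.0531), and the Jarid2 term in a fit on the 8 libraries compared (0.0631). At day 4 against day 0 the courses gave 0 calls (1.03%), with 0 members at an unadjusted p under 0.05.

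Markers of cell state also differed between the gene trap and C129 wild type at day 8. The sum of the 8 pluripotent cell markers was 52611 and 48184 in the gene trap and 18443 and 12367 in C129 wild type, and none of the 8 was at 0. Of these markers 6 were called higher, among them Dppa5a (2.92, adjusted p 2.44e-09), Zfp42 (2.28, adjusted p 5.96e-05) and Esrrb (1.71, adjusted p 6.18e-05). The sum of 7 visceral endoderm markers was 212 to 291 against 1050 to 1762, and that of 6 neural markers 4238 to 5779 against 7848 to 8125. The part of these markers in the Mtf2 and Jarid2 results was not tested. The pluripotent sums overlapped at day 0 (93860 to 109396 against 88565 to 97815). At day 4 they did not overlap, at 37257 to 38413 in the gene trap against 39553 to 48633. Epop differed by 0.09 at day 8 (95% interval -0.24 to 0.42), at 900 and 944 against 860 and 866.

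**Figure D5:**
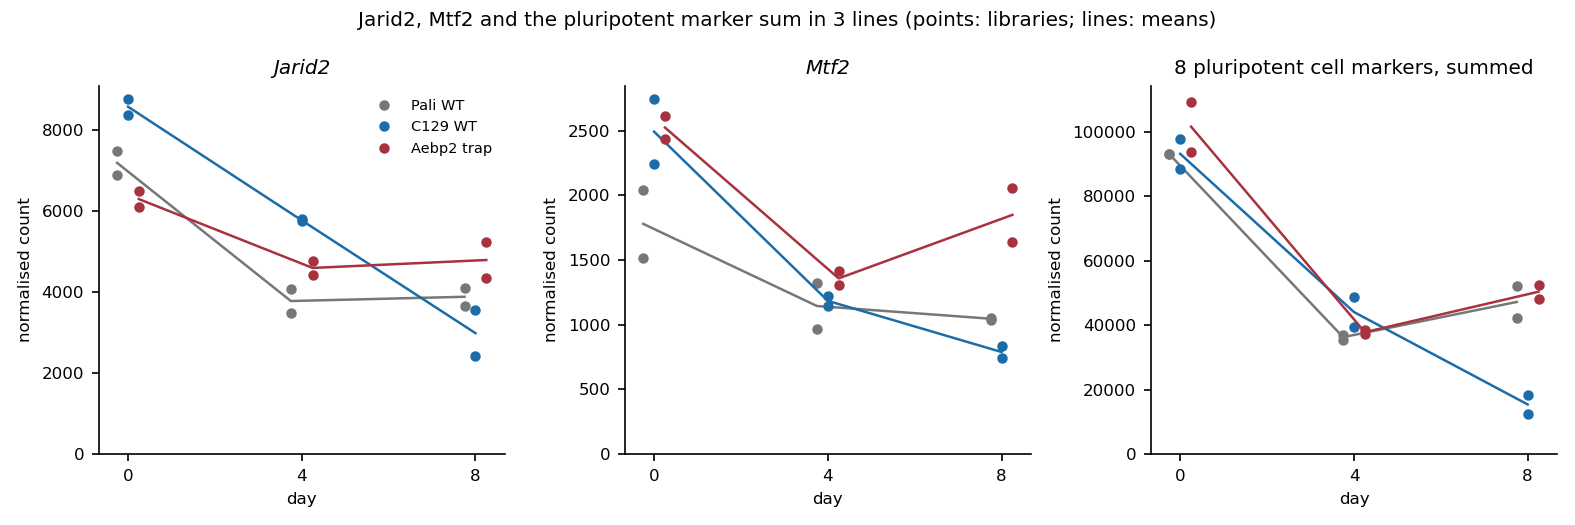
Normalised counts of Jarid2 and Mtf2 and the sum of 8 pluripotent cell markers at day 0, day 4 and day 8 in Pali wild type, C129 wild type and the gene trap, with points for libraries, set slightly apart by line, and lines through means of 2. By mean, C129 wild type is lowest at day 8 in all 3 panels and the gene trap highest.

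Epop was lower in the gene trap at day 0, at 3745 and 4056 against 5004 and 6242 (-0.52, SE 0.155, adjusted p 0.0342). That call was lost without either gene trap day 0 library (0.155 and 0.0892) or C129 day 0 replicate 2 (0.255), and in the fit on those 4 libraries alone (0.167). The level of the gene trap lay nearer to that of Pali wild type at day 0 (3008 and 3410). Phf1, Lcor and Lcorl were not called on any day. Lcorl differed by -0.29 (adjusted p 0.309), 0.13 (adjusted p 0.719) and -0.13 (adjusted p 0.689), Phf1 by 0.09, 0.23 and -0.35 (adjusted p 0.865, 0.567 and 0.280), and Lcor by -0.12, -0.27 and 0.36 (adjusted p 0.910, 0.738 and 0.569). Of other Polycomb genes at day 8, 2 of 7 core and cofactor genes were called higher, Suz12 (11691 and 8351 against 5492 and 5632, 0.83, adjusted p 0.000777) and Ezhip (AU022751, 1.33, adjusted p 0.0106), and 0 lower, beside 9.59% of all genes higher and 10.6% lower. Of the 24 PRC1 genes 5 were higher, with L3mbtl2 (0.63, adjusted p 0.000504) first by p, and 6 lower, with Cbx2 (-1.28, adjusted p 5.87e-05) first.

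The 15 group means of each member were put in order, as a description only. The share of neighbours without overlap over all genes was not computed. For Epop, 6 of the 14 pairs of neighbours in that order had libraries that did not overlap, with C129 wild type day 0 first and the Pali1 knockout at day 4 last. For Jarid2, Mtf2 and Lcorl there were 3 such pairs each, for Aebp2 2, for Phf1 1 and for Lcor and Phf19 0, so the libraries of most neighbours overlapped. With 2 libraries a group, these counts do not show whether neighbours differ. Jarid2 was highest in C129 wild type at day 0 (mean 8579) and lowest in the same line at day 8 (mean 2987). Mtf2 was highest in the gene trap at day 0 (mean 2525) and lowest in the double knockout at day 4 (mean 712). Lcorl was highest in the Pali1 knockout at day 8 (mean 746) and lowest in the gene trap at day 0 (mean 335).

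For each member, the genes with the most similar pattern over the 15 group means were taken by Pearson correlation among 10151 genes, as a description only, since the groups share lines and days. Epop was closest to Uba2 and Gle1 (r 0.980 for each), Lcorl to Ptprf (0.959) and Btbd2 (0.954), and Jarid2 to Nsun2 (0.949) and Noxred1 (0.948). Mtf2 was closest to Pvt1 (0.948) and Trim25 (0.937), which were also its closest pair by Spearman correlation, and Phf1 to Knstrn (0.938) and Wwtr1 (0.934). Aebp2 was closest to Tenm4 (0.901) and Dennd5b (0.886), and Lcor to Ism2 (0.869) and Gpsm2 (0.844). Phf19, mostly at 0, reached 0.711 with Slc35a1 and 0.665 with Qk. By Spearman correlation, 7 of the 8 members had another closest pair, with Dennd5b kept second for Aebp2.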

How the data were processed

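Libraries were stranded and made from total RNA after removal of ribosomal RNA, per the labels' protocols. The authors deposited 1 table of normalised counts, a signal with decimals and no value below 0. Tools named in the submitters' processing notes, with no role attached, are DESeq2, HISAT2 2.0.5 and kallisto 0.43.1, and the build is mm10. No source used here gives the annotation or says how transcripts were summed to genes. Reads per library were estimated from the value of 1 read (0.651 to 1.27). That value was taken as the most common low value of a library. Of values worth under 8 reads, 81.8 to 86.1% per library were whole multiples of it within 0.001 of a read. The rest were not whole, so reads were not recovered, no count model was run, and the counting error per value is known only roughly.

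The test took the 15712 genes that reached 10 in 2 or more libraries. All 8 members passed, Phf19 through single libraries. Values were transformed as log2(value + 4), which understates changes of low genes. Contrasts came from limma 3.58.1 (R 4.3.3, trend and robust moderation) with each of the 15 groups given its own mean, which leaves 15 residual degrees of freedom. Benjamini-Hochberg adjustment ran over all tested genes of a contrast, with a threshold of 0.05. The script was tested on simulated data. The alternatives were a pseudocount of 1, no filter, a filter at a mean of 50, rescaling by a trimmed mean of log ratios (TMM) or by the upper quartile, plain moderation, the replicate number as a block, a fit on the libraries compared, leaving out each library, and, chosen after the data were seen, a fit without the 6 gene trap libraries. The members, gene lists and contrasts were chosen with earlier results of these data known. Named genes are the members, up to 3 called genes of each list and direction with the lowest adjusted p, and the 2 genes most alike to each member with a mean of at least 50, leaving out unnamed gene models. Lengths and coordinates are from GENCODE on GRCm38, and promoters from RefSeq on GRCm38.p6.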

Additional observations from a re-analysis of the deposited data

Results flagged for a closer look

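The course of differentiation differed between lines, by a test of the difference itself in the limma fit, for these members. Against C129 wild type, the gene trap kept more Jarid2 at day 8 relative to day 0 (difference of log2 fold changes 1.15, adjusted p 0.00405) and more Mtf2 (1.19, adjusted p 0.00892). The Jarid2 difference did not pass in a fit on the 8 libraries compared (0.0631), nor the Mtf2 difference without gene trap day 8 replicate 1 (0.0531). Against Pali wild type, the C129 course of Aebp2 to day 4 differed by -1.58 (adjusted p 0.0413), a fall in place of a rise. To day 8, the C129 course differed by -0.90 for Mtf2 (adjusted p 0.0418) and by -1.11 for Epop (adjusted p 0.00248). The Aebp2 difference was lost without most single libraries (0.0754 to 0.148) and with a pseudocount of 1 (0.0591). The Mtf2 difference was lost without most single libraries (0.0699 to 0.181) and in the fit on the 8 libraries compared (0.0983). No filter or plain moderation also lost both (0.0501 to 0.0555). All of these differences use the C129 day 0 libraries, so they are not independent of each other.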

How the results depend on the processing

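No result changed direction. Of the calls on single members, leaving out 1 library at a time kept 509 and lost 75, a fit on the libraries compared kept 49 and lost 22, and the other settings lost at most 2 each. The number of members called changed by more than 1.5 times in these comparisons. With a pseudocount of 1, C129 against Pali wild type at day 0 gave 1 call (2 in the report), and the difference of their courses gave 0 at day 4 (1). With no filter, or with plain moderation, that difference of courses gave 0 at day 4 (1) and 1 at day 8 (2). The mean of 5 lines, day 8 against day 4, gave 2 (1) with the filter at a mean of 50, TMM or upper-quartile rescaling, or the replicate block, with Jarid2 joining under the block. Replicate numbers do not pair the libraries. Over 105 pairs of groups the correlation of same-numbered deviations was -0.08 to 0.11, over 0.1 in 1 pair, and the block moved no other count. In the fit on the libraries compared, the gene trap against C129 gave 1 call at day 0 (2), 0 at day 4 (1) and 0 at day 8 (3), and C129 gave 0 between day 4 and day 8 (4). C129 against Pali wild type gave 1 at day 0 (2) and 0 at day 4 (2), and the course differences at day 8 gave 1 each for the gene trap and for C129 (2 each). In a 4-library fit the spread of each gene rests on 2 residual degrees of freedom. Without the gene trap in the fit, the counts were 5 for Pali wild type at day 4 (3), 1 between its days 4 and 8 (0), 1 for the double knockout between those days (0), 2 for the mean of 4 lines between them (1), 1 for the Pali1 knockout at day 8 (0), 1 for C129 against Pali wild type at day 8 (0) and 1 for their course difference at day 8 (2). With the longest transcript as length, medians per kb were 304 for Aebp2, 14.9 for Lcor and 76.8 for Lcorl.

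Leaving out 1 library at a time, the ranges of calls were as follows. The gene trap against C129 gave 1 to 2 at day 0, 1 at day 4 and 2 to 3 at day 8, and its course difference at day 8 gave 1 to 3. Against day 0, day 4 and then day 8 gave 3, and 2 to 3, in the gene trap, 2 to 3, and 4 to 5, in C129, 1 to 4, and 2 to 3, in the Pali1 knockout, 2 to 3 on both days in Pali wild type, and 3 to 4, and 2 to 3, in the double knockout. Between day 4 and day 8 it was 1 to 2 in C129 and 0 to 1 in the double knockout. C129 against Pali wild type gave 1 at day 0, 0 to 1 at day 4 and 0 to 1 at day 8, and their course difference 0 to 1 at day 4 and 1 to 2 at day 8. The mean of 5 lines gave 4 to 5, 5 to 6 and 0 to 2, and the mean of 4 lines 4 to 5, 5 to 6 and 0 to 1, for day 4, day 8 and the difference between these days. All other comparisons stayed at 0.

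Depth limits Lcor and Phf1, and pairs of libraries limit every comparison. The estimated reads of Phf19 were 0 to 64. Each library with Phf19 above 0 had a duplicate at 0, and such a 0 can be a failed estimate. Count tests were not run, since whole reads could not be recovered.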
